A study of Mus musculus with 12 samples.

Results

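Pax5 and 9 other transcription factor genes of the B lineage, namely Ebf1, Foxo1, Ikzf1, Ikzf3, Irf4, Bach2, Pou2af1, Lef1 and Spi1, were followed across the 12 RNA-seq libraries of a mouse leukaemia study. They were chosen by name, and each was found once, by its Ensembl identifier, among the 21885 genes of the deposited table, so that all 10 of 10 were measured. The libraries fall into 3 groups of 4. Sorted GFP+ cells of genotype PAX5 P80R, from B-cell acute lymphoblastic leukaemias (P80R B-ALL) of primary recipients 1300, 1301, 1302 and 1308, made up 1 group. Pax5 KO libraries came from sorted fetal liver cells at the CLP/Pre-pro-B stage, the common lymphoid progenitor and the step before B-lineage commitment, of animals lacking Pax5. Pax5 WT libraries came from sorted Pro-B/Pre-BI cells of fetal livers with intact Pax5. Genotype and sorted stage therefore cannot be told apart in any comparison, and the leukaemias differ from both fetal liver groups in tissue history as well. Each leukaemia library is 1 recipient. Whether the fetal liver libraries came from separate animals or pools, which promoter drove the mutant, and what endogenous Pax5 alleles the leukaemia cells carried were not stated in the labels. The p-values measure the spread between these libraries, which may be technical for the fetal liver groups.

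B-cell identity rests on a small network of DNA-binding proteins that switch each other on. PU.1 (Spi1) and Ikaros (Ikzf1) act in early progenitors. Early B-cell factor 1 (Ebf1), with Foxo1, then starts the B-lineage program and turns on Pax5, which activates B-cell genes, represses genes of other lineages and feeds back on Ebf1. Aiolos (Ikzf3), Irf4, Bach2 and the octamer coactivator OCA-B (Pou2af1) work mainly at later B-cell steps, and Lef1 carries WNT signals in early B-lineage cells. Proline 80 lies in the paired domain of PAX5, the part that binds DNA, and P80R defines a subtype of human B-ALL.

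Promoter sequence is shown for Pax5, Pou2af1 and Irf4, genes that passed the test in all of the comparisons below. The 250 bases before each annotated start were read 5′ to 3′ on the gene's strand from RefSeq sequence on the GRCm38.p6 build, and capitals mark a match to a motif searched.
Pax5 (chr4:44710695-44710944, minus strand): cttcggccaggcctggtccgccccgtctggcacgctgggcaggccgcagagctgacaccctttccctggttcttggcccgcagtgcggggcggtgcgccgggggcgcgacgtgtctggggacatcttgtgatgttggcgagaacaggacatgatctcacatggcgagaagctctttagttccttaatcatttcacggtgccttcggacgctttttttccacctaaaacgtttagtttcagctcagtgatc
Pou2af1 (chr9:51213440-51213689, plus strand): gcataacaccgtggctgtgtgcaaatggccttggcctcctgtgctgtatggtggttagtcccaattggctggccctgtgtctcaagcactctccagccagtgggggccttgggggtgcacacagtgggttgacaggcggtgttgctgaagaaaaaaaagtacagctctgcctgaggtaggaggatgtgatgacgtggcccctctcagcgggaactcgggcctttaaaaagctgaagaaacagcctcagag
Irf4 (chr13:30748983-30749232, plus strand): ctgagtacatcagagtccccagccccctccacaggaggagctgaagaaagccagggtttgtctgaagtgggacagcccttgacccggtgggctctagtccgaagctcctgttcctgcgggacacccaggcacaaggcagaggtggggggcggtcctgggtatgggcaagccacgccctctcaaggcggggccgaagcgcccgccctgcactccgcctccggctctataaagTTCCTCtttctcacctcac
The motifs, searched on both strands, were an octamer (ATGCAAAT), an EBF core (CCCNNGGG), a PU.1 or ETS core (GAGGAA), an Ikaros core (TGGGAA), an IRF element (a pair of GAAA repeats, 2 bases apart), a LEF1 and TCF core (CTTTGA), a FOXO core (GTAAACA) and an E-protein box (CAGGTG). Of 32851 promoter windows of this length in the same table, 1.6% held the octamer, 11.8% the EBF core, 23.3% the ETS core, 21.6% the Ikaros core, 2.98% the IRF element, 13.8% the LEF1 and TCF core, 3.17% the FOXO core and 17.2% the E-protein box. The Irf4 window held the ETS core on the opposite strand, 19 to 14 bases before the start, and the Pax5 and Pou2af1 windows held none of these letters. Entries for 8 of the 10 genes were found, with 13 starts in all, and Ikzf3 and Spi1 had none. The ETS core was present for Ebf1, Irf4 and Lef1, the EBF core for Foxo1 and Ikzf1, the LEF1 and TCF core for Bach2 and Lef1, and the Ikaros core and the IRF element for Ebf1. A match describes the letters of these windows and nothing about binding.

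Depth was 24914250 to 29386256 reads in P80R B-ALL libraries, 36871775 to 43513852 in Pax5 KO libraries and 33191950 to 39465256 in Pax5 WT libraries. Values are read counts that the authors had divided by 1 factor per library, and are called levels here. The median SD of a gene's log2 level was 0.47 in P80R B-ALL, 0.11 in Pax5 KO and 0.16 in Pax5 WT. In a bulk library, fewer cells of a type and less RNA per cell cannot be told apart. Of 11 markers of CLP and pre-pro-B cells, 9 were higher and 1 lower in Pax5 KO than in Pax5 WT, and of 11 markers of pro-B and pre-BI cells, 2 were higher and 8 lower. Recipients 1300 and 1308 stood apart in erythroid and in granulocyte and monocyte markers. Erythroid markers summed to 443174 in recipient 1300 and 1096677 in recipient 1308, and granulocyte and monocyte markers to 170038 and 282304. In recipients 1301 and 1302 the same sums were 63227 and 43329 for erythroid markers and 13875 and 5095 for granulocyte and monocyte markers. Recipients 1301 and 1302 were not free of markers of other blood cells either, as given below. Results that rest on recipients 1300 and 1308 are given with and without them. Of 15 tested immediate-early and heat-shock genes, which respond to cell handling, 1 was higher and 12 lower in P80R B-ALL than in Pax5 KO, 1 higher and 5 lower than in Pax5 WT, and 13 were higher and 1 lower in Pax5 KO than in Pax5 WT. Their part in the results below was not tested.

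Most of the 10 genes were lower in Pax5 KO cells and in the leukaemias than in Pax5 WT cells, and in the leukaemias some of them lay between the fetal liver groups. In Pax5 KO against Pax5 WT, 8 of the 10 were lower and 2 higher, Ikzf1 and Spi1. In that comparison 29.1% of the 12200 genes tested were lower and 35.7% higher. The libraries of the 2 groups did not overlap for any of the 10, and over all genes 26.7% had every Pax5 KO library below, and 32.4% above, every Pax5 WT library. In P80R B-ALL against Pax5 WT, the same 8 genes were lower, with 18.9% of all genes lower and 21% higher. Every leukaemia was below every Pax5 WT library for these 8, as it was for 19.4% of all genes, and 21.2% of all genes had every leukaemia above. Ikzf1 and Spi1 did not pass the threshold there, an adjusted p of 0.05 in limma, nor did they at an unadjusted p of 0.05, in edgeR or in DESeq2. In P80R B-ALL against Pax5 KO, 4 of the 10 were higher (Pax5, Ikzf3, Irf4 and Pou2af1) and 1 lower (Ikzf1), with 17.6% of all genes higher and 20.8% lower. Groups did not overlap for 3 of the higher genes, with Pax5 as the exception, nor for Ikzf1, and over all genes 19.5% had every leukaemia above, and 22.9% below, every Pax5 KO library. Of all calls in this last comparison 45.9% were higher, and 35.5% when libraries were scaled to total reads, under which the median log2 difference of all genes was -0.26 instead of -0.11. The median log2 difference of the 10 genes was -3.03 in Pax5 KO against Pax5 WT, -1.82 in P80R B-ALL against Pax5 WT and -0.04 in P80R B-ALL against Pax5 KO, beside 0.06, -0.00 and -0.11 over all genes tested. Both comparisons with Pax5 WT share the Pax5 WT libraries, both that include Pax5 KO share the Pax5 KO libraries, and both comparisons of the leukaemias share the leukaemia libraries.

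**Figure D1:**
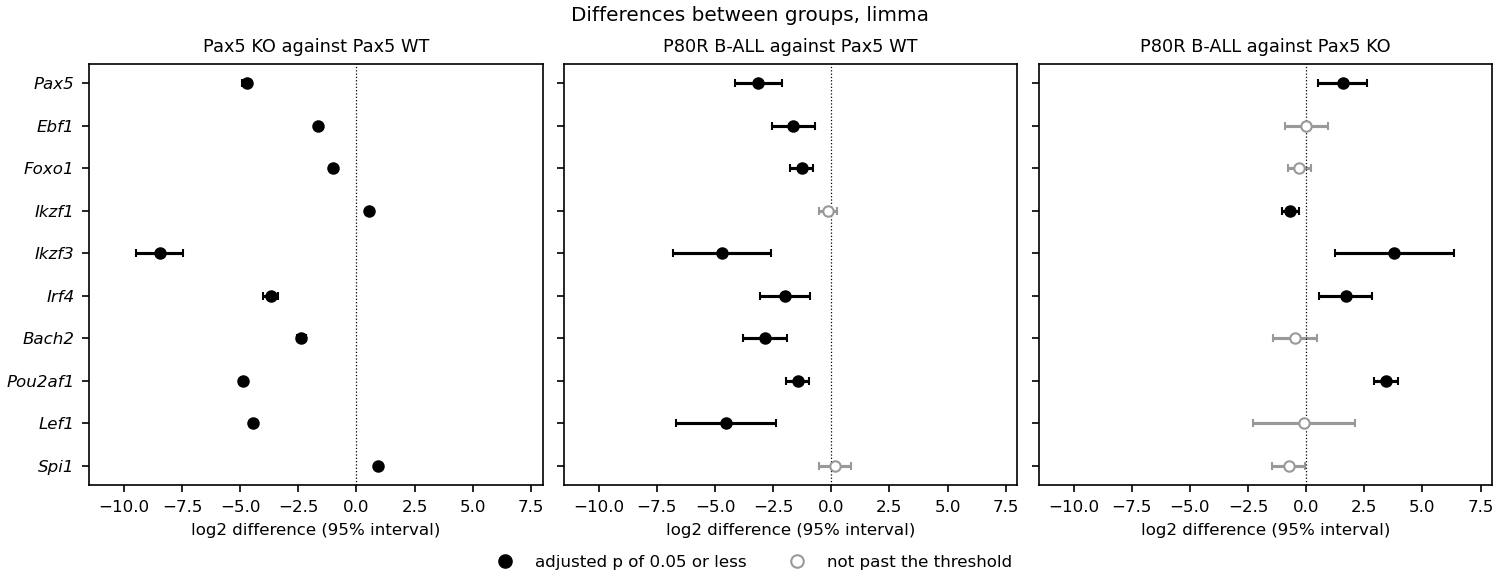
Log2 difference (x axis) of each of the 10 genes (rows) in the 3 comparisons, each fitted with limma to the 8 libraries of its pair. Points are estimates, bars 95% intervals, and filled points have an adjusted p of 0.05 or less: in the left panel all 10 are filled, in the middle panel 8, all of them below 0, and in the right panel 5.

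Pax5 was checked first, since the labels give 1 group as lacking it and another as PAX5 P80R. Its level (ENSMUSG00000014030) was 847, 1146, 1316 and 255 in recipients 1300, 1301, 1302 and 1308, 229.9, 246.5, 267 and 266 in the Pax5 KO libraries and 7315.5, 6359, 7067 and 6194 in the Pax5 WT libraries. Every Pax5 KO library was below every Pax5 WT library (log2 difference -4.73 ± 0.08 SE, adjusted p = 7.2e-13). The sorted stage differs between these groups as well, so this difference does not by itself check the genotype. Remaining reads in Pax5 KO libraries, 300 to 368 per library, are gene-level counts that do not show where in the gene they fell. All 4 leukaemias were below all Pax5 WT libraries (log2 difference -3.15 ± 0.45 SE, adjusted p = 0.000696). Recipients 1300, 1301 and 1302 were above all Pax5 KO libraries, and recipient 1308 lay within their range. The leukaemias were higher than Pax5 KO as a group (log2 difference 1.58 ± 0.46 SE, adjusted p = 0.0255), with a 95% interval of 0.53 to 2.63. This call was lost without recipient 1300, 1301 or 1302, with an adjusted p of 0.0535, 0.0676 and 0.0603 in that order, and without any 1 of the Pax5 KO libraries, with 0.0648, 0.0624, 0.058 and 0.0562 for libraries 1 to 4. Without recipient 1308 the log2 difference was 2.10 (adjusted p = 0.000227), and without recipients 1300 and 1308 it was 2.28 (adjusted p = 7.3e-05). Reads of mutant and of endogenous Pax5 were not separated, and how far reads of the mutant count towards this level is not known from the labels.

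**Figure D2:**
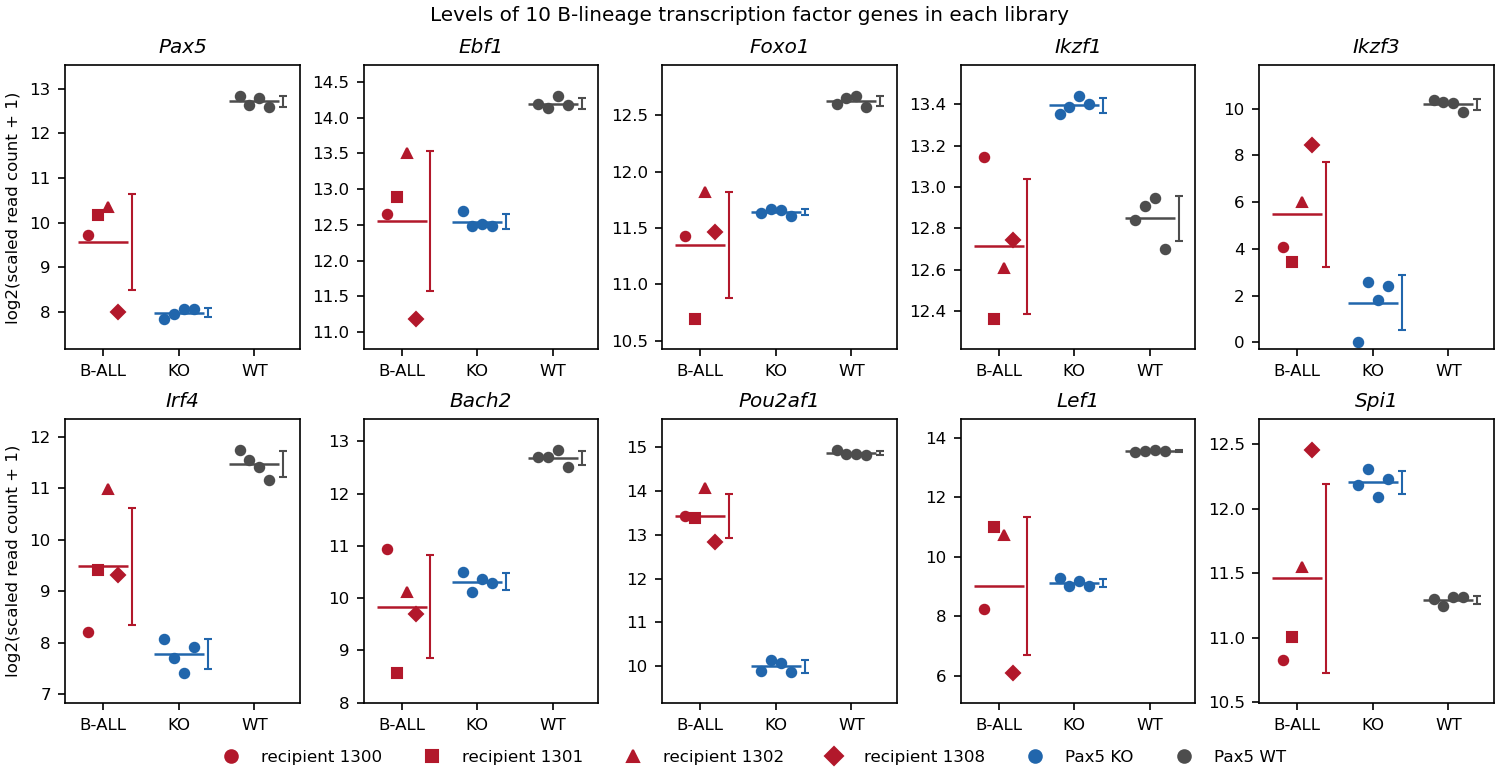
Level of each of the 10 genes as log2(scaled read count + 1) in every library, 1 panel per gene with its own axis; points are libraries, horizontal lines group means and bars 1 SD on either side (n = 4 each). In the Pax5 panel recipient 1308, at 255, lies beside the Pax5 KO libraries while recipients 1300 to 1302 lie between the fetal liver groups.

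Ebf1 and Foxo1, which start the B-lineage program, kept a substantial level in cells without Pax5. Ebf1 (ENSMUSG00000057098) was at 6436, 7632, 11594 and 2333 in recipients 1300, 1301, 1302 and 1308, 6639, 5725, 5849.6 and 5736 in Pax5 KO and 18651, 17954, 20222 and 18446 in Pax5 WT. Pax5 KO libraries were all below Pax5 WT (log2 difference -1.65 ± 0.06 SE, adjusted p = 5.54e-10), and so were the leukaemias (log2 difference -1.64 ± 0.41 SE, adjusted p = 0.0114). Around Pax5 KO the leukaemias scattered to both sides: recipient 1302 was highest, recipient 1308 lowest, and recipient 1300 lay within the Pax5 KO range. Between these groups the log2 difference was 0.01 with a 95% interval of -0.92 to 0.95, which holds falls as well as rises (adjusted p = 0.981). It was -0.13 with libraries scaled to total reads, -0.30 without recipient 1302, and 0.65 (adjusted p = 0.0206) without recipients 1300 and 1308. Without these 2 recipients Ebf1 fell by 1.00 on the log2 scale against Pax5 WT (adjusted p = 0.00402).

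Foxo1, a forkhead factor held back by PI3K and AKT signalling and needed for the IL-7 receptor and recombinase genes, was among the genes that were lower than in Pax5 WT in both other groups. Its level (ENSMUSG00000044167) was 2749, 1656, 3607.5 and 2823 in recipients 1300, 1301, 1302 and 1308, 3174, 3251, 3227 and 3121 in Pax5 KO and 6223, 6451, 6528 and 6107 in Pax5 WT. Both groups lay wholly below Pax5 WT, Pax5 KO by a log2 difference of -0.99 ± 0.05 SE (adjusted p = 7.62e-09) and P80R B-ALL by -1.28 ± 0.22 SE (adjusted p = 0.00158). Recipient 1302 was above the Pax5 KO range and the other 3 leukaemias below it. P80R B-ALL against Pax5 KO gave -0.29 with a 95% interval of -0.78 to 0.20 (adjusted p = 0.312).

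The 2 Ikaros family genes went in opposite directions in Pax5 KO cells. Ikzf1, which encodes Ikaros, a zinc-finger regulator of lymphoid progenitors (ENSMUSG00000018654), was at 9046, 5267, 6234 and 6854 in recipients 1300, 1301, 1302 and 1308, 10461, 10695, 11109 and 10817 in Pax5 KO and 7322, 7691, 7897 and 6649.7 in Pax5 WT. Pax5 KO was the highest group, and its libraries overlapped neither Pax5 WT (log2 difference 0.55 ± 0.06 SE, adjusted p = 8.2e-06) nor the leukaemias. Ikzf1 fell in P80R B-ALL against Pax5 KO (log2 difference -0.68 ± 0.16 SE, adjusted p = 0.0116), a call that stood in every alternative, with an adjusted p of at most 0.0395. Against Pax5 WT the leukaemias overlapped the Pax5 WT range, with a log2 difference of -0.13 and a 95% interval of -0.52 to 0.25 (adjusted p = 0.56). Recipients 1301 and 1302 were each below every Pax5 WT library, and without recipients 1300 and 1308 the log2 difference was -0.36. No alternative passed the threshold in this comparison, with an adjusted p of at least 0.0502. Ikzf1 had the smallest spread of the 10 genes among leukaemias, an SD of 0.33 on the log2 scale, lower than that of all but 29.3% of the genes tested.

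Ikzf3 encodes Aiolos, a relative of Ikaros that increases as B cells mature (ENSMUSG00000018168), and it was almost absent without Pax5. Its level was 15.8, 9.85, 63.3 and 343 in recipients 1300, 1301, 1302 and 1308, 0, 4.93, 2.57 and 4.33 in Pax5 KO and 1332.5, 1236, 1193 and 915 in Pax5 WT. In reads, the leukaemia libraries had 12, 8, 51 and 248 and the Pax5 KO libraries 0, 6, 3 and 6, so that the Pax5 KO level is close to the floor of 3 reads per library. No groups overlapped. Ikzf3 fell in Pax5 KO against Pax5 WT (log2 difference -8.47 ± 0.47 SE, adjusted p = 1.43e-08) and in P80R B-ALL against Pax5 WT (log2 difference -4.69 ± 0.93 SE, adjusted p = 0.00406), and was higher in P80R B-ALL than in Pax5 KO (log2 difference 3.78 ± 1.13 SE, adjusted p = 0.0278). Adding 1 before taking logs understates such differences. Recipient 1308 held the most Ikzf3 and recipient 1301 the least of the leukaemias, 34.9-fold apart. The call against Pax5 KO was lost without recipient 1302 (adjusted p = 0.0586) or without any 1 of the Pax5 KO libraries, 1 to 4 in order (adjusted p = 0.078, 0.0503, 0.0636 and 0.0512). Without recipient 1308 the log2 difference from Pax5 KO was 2.80 (adjusted p = 0.0362).

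Of the factors of later B-cell steps, Irf4 and Pou2af1 were higher in the leukaemias than in Pax5 KO, and Bach2 did not pass that test. Irf4, an interferon regulatory factor that acts in pre-B cells and again in plasma cells (ENSMUSG00000021356), was at 293, 683, 2025 and 634 in recipients 1300, 1301, 1302 and 1308, 269, 208, 169.7 and 238 in Pax5 KO and 3434, 3004, 2741.5 and 2284.5 in Pax5 WT. Every leukaemia lay between the fetal liver groups, recipient 1300 just above Pax5 KO and recipient 1302 just below Pax5 WT. Irf4 fell in Pax5 KO against Pax5 WT (log2 difference -3.69 ± 0.15 SE, adjusted p = 9.5e-10) and in P80R B-ALL against Pax5 WT (log2 difference -1.99 ± 0.48 SE, adjusted p = 0.0104), and was higher in P80R B-ALL than in Pax5 KO (log2 difference 1.70 ± 0.50 SE, adjusted p = 0.0263). Without recipients 1300 and 1308 it fell by 1.27 against Pax5 WT on the log2 scale (adjusted p = 0.0401). The call against Pax5 KO was lost without recipient 1301 (adjusted p = 0.0543) and without any 1 of the Pax5 KO libraries, 1 to 4 in order (adjusted p = 0.0502, 0.0651, 0.0725 and 0.0558).

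Pou2af1, which encodes the coactivator OCA-B that octamer-binding proteins bring to immunoglobulin promoters (ENSMUSG00000032053), set the leukaemias apart from Pax5 KO most firmly. Levels were 10956, 10634, 17044 and 7293 in recipients 1300, 1301, 1302 and 1308, 950.1, 1132, 1083.5 and 925 in Pax5 KO and 31418, 29625, 29632 and 28795 in Pax5 WT. The 3 groups did not overlap, and the lowest leukaemia, recipient 1308, was well above the highest Pax5 KO library. Mean levels were 11482 ± 4061 in P80R B-ALL, 1023 ± 101 in Pax5 KO and 29867 ± 1106 in Pax5 WT (SD, n = 4 each), 11.2-fold higher in P80R B-ALL than in Pax5 KO (log2 difference 3.43 ± 0.23 SE, adjusted p = 5.39e-05). This call stood in every alternative, including each library left out, with an adjusted p of at most 0.000517. Pou2af1 fell in P80R B-ALL against Pax5 WT (log2 difference -1.44 ± 0.22 SE, adjusted p = 0.00102) and in Pax5 KO against Pax5 WT (log2 difference -4.87 ± 0.07 SE, adjusted p = 1.69e-13). On the log2 scale the 4 leukaemias stood at 58.3% to 83.4% of the way from the Pax5 KO mean to the Pax5 WT mean. For Pax5 the same measure ran from 0.345% in recipient 1308 to 50.3% in recipient 1302, and for Irf4 from 11.5% in recipient 1300 to 86.9% in recipient 1302.

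Bach2, a repressor that holds back plasma-cell fate and takes part in the pre-B-cell receptor checkpoint (ENSMUSG00000040270), was at 1964, 380.3, 1113 and 829 in recipients 1300, 1301, 1302 and 1308, 1438, 1104.5, 1317.5 and 1255 in Pax5 KO and 6631, 6665, 7310.1 and 5793 in Pax5 WT. Every leukaemia and every Pax5 KO library was far below Pax5 WT. Bach2 fell in P80R B-ALL against Pax5 WT (log2 difference -2.85 ± 0.41 SE, adjusted p = 0.000771) and in Pax5 KO against Pax5 WT (log2 difference -2.37 ± 0.09 SE, adjusted p = 5.44e-10). Recipient 1300 was above the Pax5 KO range, recipient 1302 within it, and recipients 1301 and 1308 below it. The difference from Pax5 KO was -0.48 with a 95% interval of -1.43 to 0.47 (adjusted p = 0.392).

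Lef1, the HMG-box factor through which WNT signals reach DNA (ENSMUSG00000027985), differed widely among the leukaemias. It was at 301, 2064, 1683 and 67.8 in recipients 1300, 1301, 1302 and 1308, 619, 514, 579.5 and 516.5 in Pax5 KO and 11740.1, 12046, 12311 and 11877 in Pax5 WT. Recipients 1301 and 1302 were above and recipients 1300 and 1308 below every Pax5 KO library, a 30.4-fold span among leukaemias, and all were below Pax5 WT. Lef1 fell in Pax5 KO against Pax5 WT (log2 difference -4.43 ± 0.07 SE, adjusted p = 3.38e-13) and in P80R B-ALL against Pax5 WT (log2 difference -4.53 ± 0.95 SE, adjusted p = 0.0058). Without recipients 1300 and 1308 the log2 difference from Pax5 WT was -2.68 (adjusted p = 1.6e-05). Against Pax5 KO the difference was -0.10 with a 95% interval of -2.29 to 2.09, wide enough to hold a 4-fold change either way (adjusted p = 0.944). Its sign turned with the tool, to 0.97 in edgeR and 0.99 in DESeq2, with the libraries, to 0.16 without recipient 1300 and 0.87 without recipient 1308, and to 1.74 without both (adjusted p = 0.000234). The leukaemias with the least Lef1 are those with the most erythroid and granulocyte marker reads, whose part in the result was not tested.

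Spi1 encodes PU.1, an ETS factor whose high level favours myeloid and whose low level favours B-lineage development (ENSMUSG00000002111), and it was higher in Pax5 KO. Its level was 1822, 2058, 2995 and 5614 in recipients 1300, 1301, 1302 and 1308, 4649.5, 5073, 4366 and 4808 in Pax5 KO and 2519.5, 2426, 2545 and 2546 in Pax5 WT. Pax5 KO lay wholly above Pax5 WT (log2 difference 0.91 ± 0.06 SE, adjusted p = 6.99e-08). Recipient 1308 was above all Pax5 KO libraries, recipients 1300 and 1301 below all Pax5 WT libraries, and recipient 1302 between the groups. Neither leukaemia comparison passed: P80R B-ALL against Pax5 WT gave 0.17 with a 95% interval of -0.52 to 0.86 (adjusted p = 0.695), and against Pax5 KO -0.74 with -1.45 to -0.03 (adjusted p = 0.09). Recipient 1308 set the sign of the first, and the call of the second turned with it and with the processing. With all leukaemias kept, the second passed under scaling to total reads and in both fits to all 12 libraries. Without recipient 1308 Spi1 was -0.16 against Pax5 WT (adjusted p = 0.476) and fell by 1.07 on the log2 scale against Pax5 KO (adjusted p = 0.00269). Without recipients 1300 and 1308 the values were -0.02 against Pax5 WT (adjusted p = 0.948) and -0.93 against Pax5 KO (adjusted p = 0.00422).

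Markers of cells that themselves express Spi1 or Ikzf3 were also highest in recipient 1308. Macrophage markers summed to 6472 to 33422 in P80R B-ALL, 1821 to 2137 in Pax5 KO and 13.8 to 39.7 in Pax5 WT, with the highest sum in recipient 1308. All 9 tested of them were higher in P80R B-ALL than in Pax5 WT and 6 were higher than in Pax5 KO. Of the 11 listed, 8 were at 0 in all Pax5 WT libraries and 3 in all Pax5 KO libraries. C1qa and Cd5l, singled out after their values were seen, were among the 8, and Cd5l among the 3. Mature B-cell markers summed to 19514 to 374646 in P80R B-ALL, 3459 to 3855 in Pax5 KO and 8840.5 to 10061 in Pax5 WT. Of 8 tested, 5 were higher in P80R B-ALL than in Pax5 KO, and 4 were higher and 2 lower than in Pax5 WT. Recipient 1308 held the highest of these sums and recipient 1302 the next, 92839, as for Ikzf3. Plasmacytoid dendritic markers summed to 12894 to 230628 in P80R B-ALL, 15619 to 16702 in Pax5 KO and 8569.6 to 9439 in Pax5 WT, again with recipient 1308 at the top. Tcf4 held 79.9% to 84.3% of that sum in Pax5 WT and 76.4% in recipient 1300. Without Tcf4 the sums were 4361, 7734, 9003 and 198864 in recipients 1300, 1301, 1302 and 1308. In the fetal liver groups they were then 10210 to 10819 in Pax5 KO and 1481 to 1848 in Pax5 WT. Of 9 tested, 6 were higher in P80R B-ALL than in Pax5 WT and 8 were higher and 1 lower in Pax5 KO than in Pax5 WT, and 0 passed between P80R B-ALL and Pax5 KO in limma, also at an unadjusted p of 0.05, against 2 higher in edgeR and 2 higher in DESeq2.

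Granulocyte and monocyte markers were higher for 11 of 14 in P80R B-ALL than in Pax5 WT and for 14 of 14 in Pax5 KO than in Pax5 WT, and summed to 9677 to 10479 in Pax5 KO and 600.1 to 859 in Pax5 WT. Between P80R B-ALL and Pax5 KO, 2 of these 14 were higher and 2 lower in limma, 5 and 0 in edgeR and 7 and 0 in DESeq2. Erythroid markers were higher for 8 of 11 in P80R B-ALL than in Pax5 WT and for 7 of 11 than in Pax5 KO, and 1 was lower in each comparison. The haemoglobin gene Hbb-bs, singled out likewise, was at 242008, 24039, 18622 and 562909.5 in recipients 1300, 1301, 1302 and 1308 and at no more than 2.17 in any fetal liver library. Plasma-cell markers, of interest beside Irf4, summed to 246965.5 in recipient 1301 and to 11326 in recipient 1302, where Irf4 was highest. The Pax5 KO range of that sum was 107772 to 118949.8 and the Pax5 WT range 6525 to 7407. Jchain, the joining chain of secreted antibodies, held 93% of the sum in recipient 1301 and 92.6% to 93.2% in Pax5 KO. Without it the sums were 10765, 17281, 8545 and 26181.5 in recipients 1300, 1301, 1302 and 1308, 7933 to 8675 in Pax5 KO and 6387.5 to 7231 in Pax5 WT, with recipient 1308 highest. Slamf7, a surface receptor of plasma and NK cells, went the other way from Jchain in Pax5 KO against Pax5 WT (log2 difference -6.76 ± 0.29 SE, adjusted p = 1.5e-09). T-lineage markers summed to 5689 to 14229.5 in P80R B-ALL, 2631 to 2716 in Pax5 KO and 454 to 585 in Pax5 WT, and NK and innate lymphoid markers to 4711 to 33506, 9333 to 10314 and 671 to 981 in the same groups. Lck, a kinase of T-cell receptor signalling, held 79.1% to 97% of the T-lineage sum in all libraries but recipient 1308. The part of other cells in the levels of the 10 genes was not tested.

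**Figure D3:**
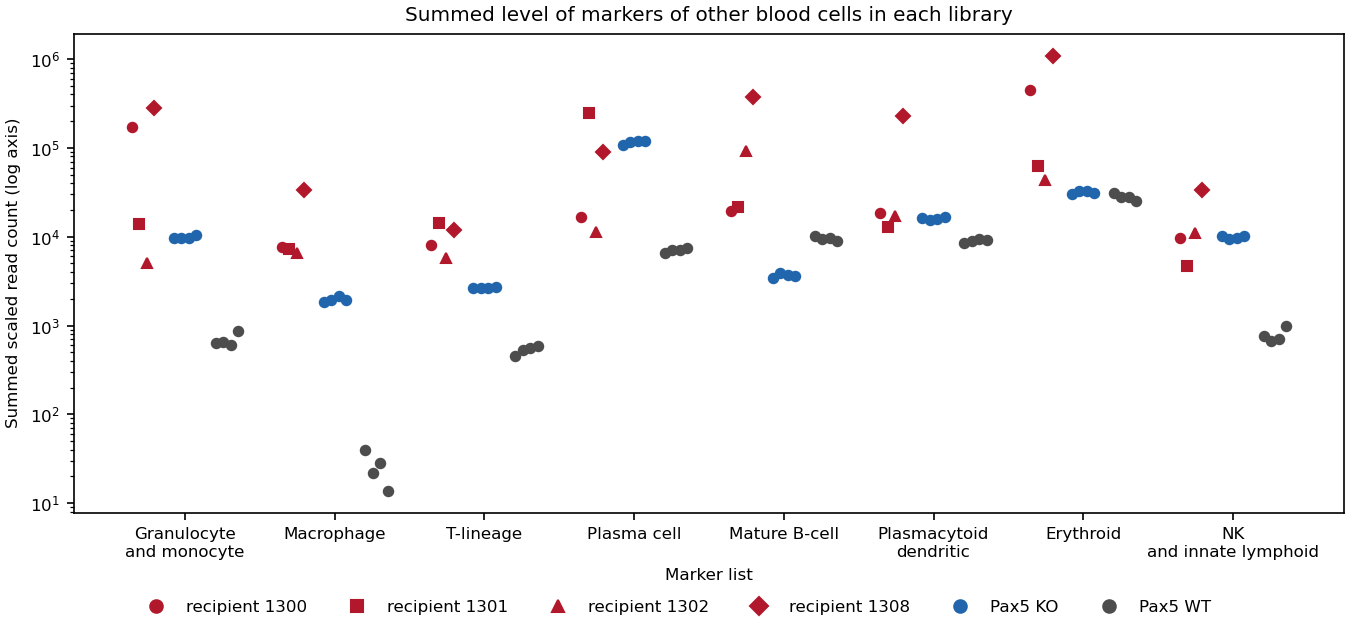
Summed scaled read count of each marker list (y axis, log scale) in every library; red symbols are the 4 leukaemias, blue and grey points the Pax5 KO and Pax5 WT libraries. Recipient 1308 is highest for macrophage, mature B-cell, plasmacytoid dendritic and erythroid markers, and recipient 1301 for plasma-cell markers, 93% of which is Jchain there. The gene with the largest share of the erythroid sum is Hbb-bs in each leukaemia and Tfrc in each fetal liver library. Tfrc holds 64.1% to 67.4% of that sum in Pax5 KO and 77.7% to 84.4% in Pax5 WT.

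No leukaemia placed all 10 genes in 1 position relative to the fetal liver groups. Recipient 1302 lay between the Pax5 KO and Pax5 WT ranges for 8 genes, and was the highest of the 4 leukaemias for 5 genes and the lowest for none. Recipients 1300 and 1301 lay between the ranges for 6 genes each and below both for 3 and 4. Recipient 1308 lay between the ranges for 3 genes, below both for 4 (Ebf1, Foxo1, Bach2 and Lef1) and above both for Spi1, within Pax5 KO for Pax5 and within Pax5 WT for Ikzf1. For Ikzf3, Irf4 and Pou2af1, all 4 leukaemias lay between the ranges, as they did for 1.91% of the 12200 genes tested. Of all genes tested, 11.6%, 12%, 15.7% and 11.1% lay between the ranges in recipients 1300, 1301, 1302 and 1308. In the same order 32.4%, 33.6%, 24.2% and 31.2% of all genes lay below both ranges, and 30.6%, 29.7%, 24.1% and 34.4% above both. A gene can lie between the ranges only where they do not overlap, as was so for all 10 genes. Over all genes, 26.7% had every Pax5 KO library below, and 32.4% above, every Pax5 WT library. The shares between the ranges are therefore not a like background for the 10 genes. Spread among leukaemias was widest for Lef1 and Ikzf3, with SDs of 2.31 and 2.25 on the log2 scale, above 94.2% and 93.7% of the genes tested, and for the other 8 genes it was 0.33 to 1.14.

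**Figure D4:**
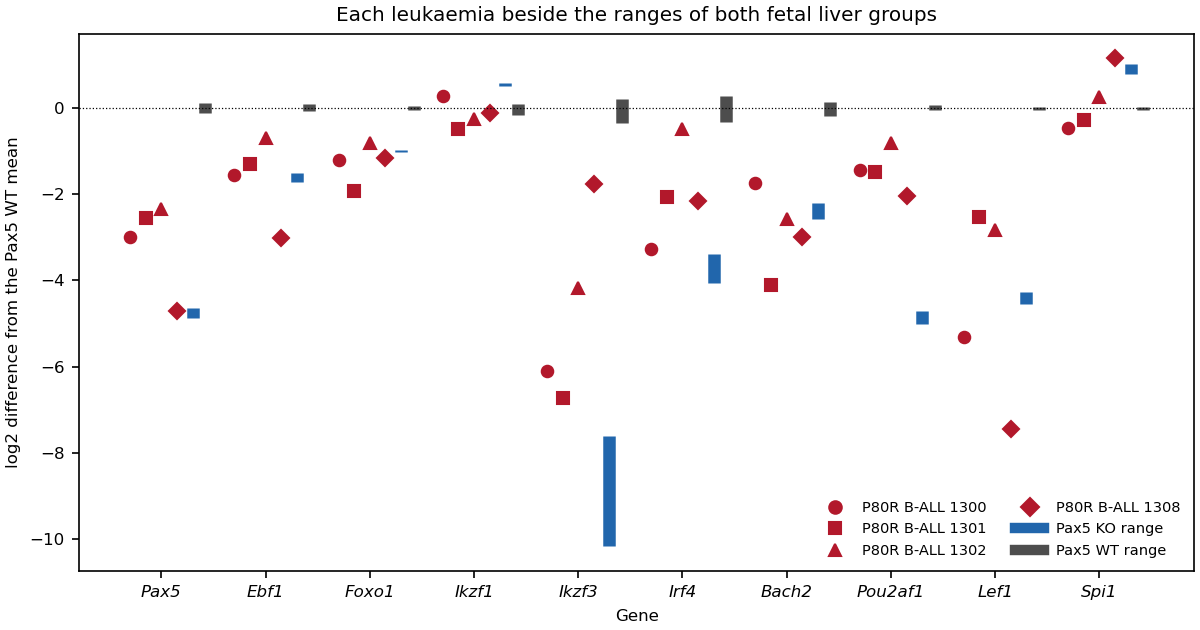
Log2 difference from the Pax5 WT mean (y axis) of each leukaemia (red symbols) for the 10 genes (x axis), beside the ranges of the Pax5 KO (blue bars) and Pax5 WT libraries (grey bars). All 4 leukaemias lie between the bars for Ikzf3, Irf4 and Pou2af1, and recipient 1308 is lowest for Pax5, Ebf1, Pou2af1 and Lef1.

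The order of the 10 genes by level per kilobase of exon differed between the groups. In P80R B-ALL, Pou2af1 led with 4504 ± 1593 per kilobase (SD, n = 4), apart from Ikzf1 with 1186 ± 277. Below it each gene overlapped its neighbour in the order Ikzf1, Spi1, Ebf1, Foxo1, Irf4, Lef1, Bach2, Pax5 and Ikzf3. In Pax5 KO, Ikzf1 and Spi1 led with 1864 ± 46.7 and 1753 ± 109.8 per kilobase and overlapped, followed by Ebf1 with 614 ± 44.9 and Pou2af1 with 401.3 ± 39.5. Pax5, with 28.5 ± 1.98, was ninth and Ikzf3, with 0.338 ± 0.253, last. In Pax5 WT, Pou2af1 led with 11717 ± 434 per kilobase, followed by Ebf1 with 1929 ± 100.5, Lef1 with 1365 ± 27.97 and Ikzf1 with 1279 ± 94.9, of which Lef1 and Ikzf1 overlapped. Pax5, with 761 ± 61.2, overlapped Foxo1 next below it, Foxo1 overlapped Bach2 and Bach2 overlapped Irf4, and Ikzf3 was last with 133.6 ± 20.5.

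Likeness between genes was measured as the root mean square difference of their log2 levels over the 12 libraries after each gene was centred on its own mean, where 0 is the same pattern. These points share libraries, depth and groups, and the values are a description. Levels were not scaled to each gene's spread, so a gene that varies little lies near many others. Among the 10 genes, Ikzf1 and Spi1 were closest (0.46), then Ebf1 and Foxo1 (0.60). The median distance to all tested genes was 0.59 for Ikzf1, 0.74 for Spi1, 1.06 for Ebf1 and 0.78 for Foxo1. These short distances therefore do not single out a shared pattern. Pax5 was closest to Irf4 (0.85), Pou2af1 (0.91) and Lef1 (1.00). Ikzf3 was 2.12 or more from every other of the 10. Over all genes tested, those most like Pax5 were Chchd10 (0.56) and B3gnt2 (0.57), beside a median of 2.13 over all tested genes. Ebf1 had 1700030K09Rik (0.29) and Pla2g12a (0.30), Foxo1 had Cables2 (0.14) and Tomm34 (0.17), and Ikzf1 had Asb7 (0.06) and Hs2st1 (0.10). Nearest to Ikzf3 were Mybpc2 (0.94) and Cd55 (1.01), and to Irf4 Mmp11 (0.54) and Tmem255a (0.55). Bach2 was followed most closely by Dnajc21 (0.39) and Lrmp (0.39), and Pou2af1 by Adgre5 (0.41) and Nedd9 (0.52). Lef1 had no gene nearer than Rapgef5 (0.92) and Efnb2 (0.95), and Spi1 had Irf2bp2 (0.15) and R3hdm4 (0.16).

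Target genes of the factors were taken from lists of genes known from other work, chosen with earlier results of these data known. Of 17 tested Pax5-activated genes, 10 were higher in P80R B-ALL than in Pax5 KO and 7 did not pass, 10 were lower in P80R B-ALL than in Pax5 WT and 7 did not pass, and all 17 were lower in Pax5 KO than in Pax5 WT. Their median log2 differences were 2.11, -1.57 and -3.97 in that order, beside -0.11, -0.00 and 0.06 over all genes. Vpreb3, a chaperone-like partner in pre-B-cell receptor assembly, was at 4126, 8591, 12228 and 8588 in recipients 1300, 1301, 1302 and 1308 and 13.7 to 41.9 in Pax5 KO, where it did not overlap the leukaemias (log2 difference 8.38 ± 0.42 SE, adjusted p = 1.52e-05). Blnk, the adaptor of B-cell receptor signalling, was at 4805.5, 3491, 1278 and 9723 in the same recipients and 99 to 139.7 in Pax5 KO (log2 difference 5.03 ± 0.52 SE, adjusted p = 0.000354).

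Of 15 tested Pax5-repressed genes, 12 were higher and 1 lower in P80R B-ALL than in Pax5 WT, and 14 were higher in Pax5 KO cells than in Pax5 WT cells and 1 did not pass. Against Pax5 KO, 3 were higher and 6 lower in the leukaemias. Without Pax5 KO library 1, 3 or 4, 1 was higher, and without recipients 1300 and 1308, 3 were higher and 9 lower. Flt3, a cytokine receptor of early progenitors, was at 2374.5, 1848, 10056 and 7957 in recipients 1300, 1301, 1302 and 1308, 12388 to 14303 in Pax5 KO and 15.8 to 34 in Pax5 WT, and no group overlapped another. Notch1, the receptor of T-lineage specification, was at 774, 1563, 2036 and 844 in the same recipients, against 9586 to 11074 in Pax5 KO (log2 difference -3.08 ± 0.29 SE, adjusted p = 0.000269) and 345 to 776 in Pax5 WT, so that the leukaemias were nearer to Pax5 WT than to Pax5 KO in this gene. Gimap6, a lymphocyte GTPase gene, went the other way and was higher in P80R B-ALL than in Pax5 KO (log2 difference 1.76 ± 0.23 SE, adjusted p = 0.00091). Its level was 3046 to 3466 in Pax5 KO and 2959 to 3266.5 in Pax5 WT, which overlapped. The leukaemias, at 6709 to 15640, were above both fetal liver groups.

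Of 13 Ebf1-activated genes, 3 of which (Pax5, Foxo1 and Pou2af1) are among the 10, 9 were higher and 1 lower in P80R B-ALL than in Pax5 KO, 1 was higher and 10 lower in P80R B-ALL than in Pax5 WT, and all 13 were lower in Pax5 KO than in Pax5 WT. Vpreb1, which encodes part of the surrogate light chain, was at 17247, 37185, 21052 and 21904 in recipients 1300, 1301, 1302 and 1308 and 3901 to 4166 in Pax5 KO (log2 difference 2.53 ± 0.22 SE, adjusted p = 0.000154). Cd79b, which signals from the B-cell receptor, was likewise higher (log2 difference 2.72 ± 0.18 SE, adjusted p = 4.2e-05). Of 17 FOXO target genes, 6 were higher and 1 lower in P80R B-ALL than in Pax5 KO, 5 higher and 3 lower than in Pax5 WT, and 7 higher and 8 lower in Pax5 KO than in Pax5 WT. The counts against Pax5 KO moved most with the libraries: 2 or 3 were higher without recipient 1300 or any 1 of the Pax5 KO libraries, 2 or 3 were lower without recipient 1300, 1301 or 1302, and 5 were higher and 5 lower without recipients 1300 and 1308. Against Pax5 WT, 4 were higher and 6 lower without recipients 1300 and 1308. Il7r, the IL-7 receptor gene, was at 12989, 8843, 9211 and 7427 in recipients 1300, 1301, 1302 and 1308, 5357 to 6235 in Pax5 KO and 3925 to 4115 in Pax5 WT, and all leukaemias were above both groups. The test passed against Pax5 KO (log2 difference 0.72 ± 0.17 SE, adjusted p = 0.0111) and Pax5 WT (log2 difference 1.22 ± 0.17 SE, adjusted p = 0.00058), while Foxo1 was lower than in Pax5 WT.

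Of 16 PU.1-dependent myeloid genes, 10 were higher and 1 lower in P80R B-ALL than in Pax5 WT, and 14 were higher and 2 lower in Pax5 KO than in Pax5 WT. Against Pax5 KO, 4 were higher in the leukaemias and 12 did not pass, but without recipient 1308, 4 were higher and 4 lower, and without recipients 1300 and 1308, 4 were higher and 9 lower. This list is also expressed by granulocytes and macrophages, whose markers are given above. Of 11 tested WNT and LEF1 target genes, 1 was higher and 3 lower in P80R B-ALL than in Pax5 KO, 2 higher and 3 lower than in Pax5 WT, and 7 higher and 2 lower in Pax5 KO than in Pax5 WT. Against Pax5 KO, 2 were higher without recipient 1302, and without any 1 of the Pax5 KO libraries the higher one no longer passed. Lgr5, a stem-cell receptor gene and WNT target, was at 2.48 to 12.3 in P80R B-ALL, 0 to 1.71 in Pax5 KO and 1365 to 1483 in Pax5 WT. It fell in P80R B-ALL (log2 difference -7.82 ± 0.47 SE, adjusted p = 1.06e-05) and in Pax5 KO (log2 difference -9.69 ± 0.30 SE, adjusted p = 7.61e-11), both against Pax5 WT.

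Family relatives of the 10 genes did not follow 1 direction. Of 14 tested of 20, 4 were higher and 2 lower in P80R B-ALL than in Pax5 KO, 4 higher and 2 lower than in Pax5 WT, and 4 higher and 5 lower in Pax5 KO than in Pax5 WT. Without recipients 1300 and 1308, 4 were lower than in Pax5 KO and 5 lower than in Pax5 WT, and 4 lower than in Pax5 WT without recipient 1308 alone, and without Pax5 KO library 2 or 3, 2 were higher than in Pax5 KO. Spib, the ETS relative of PU.1 in B cells and plasmacytoid dendritic cells, was at 342, 2254.5, 4116 and 14513 in recipients 1300, 1301, 1302 and 1308, 467.5 to 640 in Pax5 KO and 6981 to 8194 in Pax5 WT, so that recipient 1308 was above all others and recipient 1300 below. Spib fell in Pax5 KO against Pax5 WT (log2 difference -3.86 ± 0.10 SE, adjusted p = 1.28e-11), opposite to Spi1. Irf8, the relative of Irf4, was at 106755 in recipient 1308 and 2735, 3599.5 and 2538 in recipients 1300, 1301 and 1302, against 3646 to 4317.5 in Pax5 KO and 7590.5 to 8632 in Pax5 WT. Spic, an ETS relative known from red-pulp macrophages, was at 187, 454, 439 and 2169.9 in recipients 1300, 1301, 1302 and 1308 and listed at 0 in all Pax5 KO and Pax5 WT libraries. Tcf7, the relative of Lef1 known from T cells, was at 337, 559, 1104 and 530 in the same recipients, 243 to 295 in Pax5 KO and 13 to 73.2 in Pax5 WT, and rose where Lef1 fell, in P80R B-ALL (log2 difference 3.82 ± 0.58 SE, adjusted p = 0.000852) and in Pax5 KO (log2 difference 2.77 ± 0.43 SE, adjusted p = 0.000128), both against Pax5 WT.

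Among partners and other regulators of the B lineage, 3 of 24 were higher and 7 lower in P80R B-ALL than in Pax5 KO, 4 higher and 10 lower than in Pax5 WT, and 5 higher and 13 lower in Pax5 KO than in Pax5 WT. Without Pax5 WT library 1, 2 or 3, 2 were higher in P80R B-ALL than in Pax5 WT. Tcf3, which encodes the E proteins that act with Ebf1, was at 3865.5, 4110.2, 5409 and 3847 in recipients 1300, 1301, 1302 and 1308, 7937 to 8439.6 in Pax5 KO and 23515 to 26603 in Pax5 WT. The leukaemias were below both fetal liver groups, against Pax5 KO (log2 difference -0.92 ± 0.14 SE, adjusted p = 0.00148) and against Pax5 WT (log2 difference -2.57 ± 0.14 SE, adjusted p = 8.8e-06). Runx1, a core factor of blood progenitors, was at 2076 to 3872 in P80R B-ALL and 7561 to 7813 in Pax5 KO, with no overlap (adjusted p = 0.000666). Id3, an inhibitor of E proteins, fell in P80R B-ALL (log2 difference -3.23 ± 0.44 SE, adjusted p = 0.000586) and in Pax5 KO (log2 difference -3.13 ± 0.09 SE, adjusted p = 3.57e-11), both against Pax5 WT. Id2, another such inhibitor, was at 2755 to 3228 in Pax5 KO and 277 to 399 in Pax5 WT, without overlap (log2 difference 3.21 ± 0.12 SE, adjusted p = 2.99e-10).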

How the data were processed

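Sorted cells of 12 mouse samples were profiled by RNA-seq. Per the labels' protocols, RNA was extracted on micro columns and amplified by SMART-Seq v4, a full-length method. It keeps no strand information, so reads of a gene and of an overlapping antisense transcript are counted together. Per the submitters' processing notes, reads were handled with fastp, STAR 2.7.8a and featureCounts on mm39; their annotation and treatment of multi-mapping reads are not given in these notes. The deposited signal values are read counts that the authors divided by 1 factor per library, since 100% of them, within 0.001, were whole multiples of 1 step per library; how the factors were set is not given. Multiplying back gave whole reads, used for depth, edgeR and DESeq2.

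GENCODE M21 gave symbols for 21780 of 21885 identifiers, and exon lengths. Two-sided tests used limma 3.58.1 (R 4.3.3) on log2(value + 1), with moderated variances (trend, robust), on the 8 libraries of each pair, because the leukaemias varied more than the other groups. The test covered the 12200 genes that reached a value of 10 in 4 or more libraries, and p-values were Benjamini-Hochberg adjusted over them, with a threshold of 0.05. The fit was tested on simulated data. Alternatives were other filters, pseudocounts and scalings, fits to all 12 libraries, edgeR 4.0.16 and DESeq2 1.42.0 on recovered reads, libraries left out, and a replicate block. The 10 genes, the lists and the tests were chosen with earlier results of these data known. Besides the 10, the genes named are the 2 most like each of them, up to 3 per list with the smallest adjusted p, and Flt3 as a label check; 1 gene the rule named is not reported here; genes named by other choices are marked as such. Intervals of differences are 95% intervals of the fit, and floors cover counting error only.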

Additional observations from a re-analysis of the deposited data

Results flagged for a closer look

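Of 30 sets of 4 libraries, 1 for each of the 10 genes in each group, 2 held a library far from the other 3, by Dixon's test of the gap over the range. The first was Ebf1 in Pax5 KO, where library 1 was at 6638.8 and the others at 5725 to 5850, on the linear and on the log2 scale. The second was Ikzf3 in P80R B-ALL, where recipient 1308 was at 343.2 and the others at 9.85 to 63.3, on the linear scale and not on the log2 scale. Chance alone marks about 1 in 20 such sets.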

How the results depend on the processing

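For the 10 genes, 190 of 190 alternative values in Pax5 KO against Pax5 WT and 188 of 190 in P80R B-ALL against Pax5 WT kept their direction and their side of the threshold; in the second, Spi1 turned to -0.02 without recipients 1300 and 1308 and ran from -0.16 to 0.38 with 1 library left out. In P80R B-ALL against Pax5 KO, 156 of 190 did, 17 lost the call, 6 gained one and 11 turned, and the cause was not tested. Ebf1 turned to -0.13 with scaling to total reads and ran from -0.30 to 0.47 with 1 library left out. Lef1 was 0.97 in edgeR, 0.99 in DESeq2, 1.74 without recipients 1300 and 1308, and -0.77 to 0.87 with 1 library left out. Of the 10 genes, 2 were lower, with Spi1 added, under scaling to total reads, both fits to all 12 libraries and without recipients 1300 and 1308. Without recipients 1300 and 1308, 6 were higher, with Ebf1 and Lef1 added to the 4. With 1 library left out, 1 to 4 were higher and 1 to 2 lower, and over all genes 1519 to 2361 were higher and 1596 to 2954 lower, against 2151 and 2532. In Pax5 KO against Pax5 WT, 4352 genes were higher and 3549 lower, and 2449 and 1744 in the fit to all 12 libraries with 1 shared spread.

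Pax5 KO and Pax5 WT libraries share replicate numbers. Their same-number deviations correlated at 0.005, 0.022, 0.032 and 0.062, none above 0.1, so the numbers were not taken as pairs. With a replicate block 8 of the 10 genes were still lower and 2 higher, and 4415 and 3572 of all genes were higher and lower. With 4 leukaemias of wide spread, the SE of the log2 difference between P80R B-ALL and Pax5 KO ran from 0.16 for Ikzf1 to 1.13 for Ikzf3, and Ikzf3 in Pax5 KO rests on 0 to 6 reads per library.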

Other observations

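The ratio of Pax5 to Ebf1 was looked at after their values were seen, and is given with no test. Pax5 varied 5.17-fold and Ebf1 4.97-fold among the 4 leukaemias, and recipient 1308 was lowest and recipient 1302 highest for both. The log2 ratio of the Pax5 to the Ebf1 level nevertheless kept to -3.19 to -2.73 in P80R B-ALL (SD 0.21, n = 4), with -4.85 to -4.43 in Pax5 KO and -1.57 to -1.35 in Pax5 WT. The ratio of Pou2af1 to Pax5 was 3.21 to 4.83 on the log2 scale in P80R B-ALL, highest in recipient 1308, against 1.80 to 2.19 in Pax5 KO and 2.07 to 2.22 in Pax5 WT, so that the leukaemias lay above both fetal liver groups in this ratio. The log2 ratio of Ebf1 to Spi1 was 1.82 to 1.95 in recipients 1300, 1301 and 1302 and -1.27 in recipient 1308, against 0.17 to 0.51 in Pax5 KO and 2.86 to 2.99 in Pax5 WT. Ratios within a library do not depend on its scaling, and they do not show which of both genes changed.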
